A study of Mus musculus with 32 samples.

Results

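The comparison described here is the pooled effect of Lys05 on gene expression in LSK cells, the lineage-negative, Sca-1-positive, Kit-positive fraction of bone marrow that holds haematopoietic stem cells and early multipotent progenitors. Its members were chosen by their labelled treatment alone: 8 LSK libraries from mice that received Lys05, with or without AC220, were set against 8 LSK libraries from mice that received no Lys05. These are 16 of the 32 libraries of the series, and the other libraries are granulocyte-macrophage progenitors (GMP). All groups, the vehicle group included, came from C57BL/6 mice that carry a FLT3-ITD transgene, and all were treated in vivo. The 4 LSK groups of 4 libraries each received Vehicle, Lys05, AC220 or the Combination of both drugs. The labels give neither the promoter of the transgene nor a dose, a duration, an age or a sort date, and they call the 4 libraries of a group biological replicates without naming the animals.

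Lys05 is a dimeric relative of chloroquine. It accumulates in lysosomes, raises their pH and blocks the last step of autophagy, the delivery of cell contents to the lysosome for breakdown, and palmitoyl-protein thioesterase (Ppt1) is a reported target of this class of compound. Cells under lysosomal stress are known to answer through the MiT/TFE transcription factors (Tfeb, Tfe3, Mitf), which switch on genes for lysosomal enzymes, the proton pump and autophagy, and through SREBP, which switches on sterol synthesis. AC220, also called quizartinib, inhibits the FLT3 kinase, and FLT3-ITD is the internal tandem duplication that leaves this receptor active without its ligand.

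No gene passed the test for the pooled Lys05 effect. edgeR's quasi-likelihood test, with the presence of AC220 as a covariate, called 0 of 14962 genes at an adjusted p under 0.05 (0%), and the smallest adjusted p was 0.105. At an unadjusted p under 0.05 it listed 2347 genes, of which 1340 were higher (8.96% of the genes tested) and 1007 lower (6.73%) with Lys05. Other tools gave other counts on the same libraries: DESeq2 called 364 genes, 161 higher and 203 lower, and limma's voom with library quality weights called 1742, 1099 higher and 643 lower. The calls of these tools overlapped in 285 genes, which is 78.3% of the DESeq2 list and 16.4% of the voom list. In the same edgeR fit the presence of AC220 called 9573 genes (64%). The values that follow are therefore descriptions of the genes with the strongest evidence in this fit, none of which passed it.

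The libraries held between 36.4 M and 55.9 M counts on genes. Ly6a, which encodes Sca-1, ranged from 56.8 to 192 CPM (counts scaled to a common library size with edgeR's TMM factors), and Kit ranged from 36.1 to 180 CPM. Of the lineage genes, Cd3e was at most 0.247 CPM and Itgam at most 7.06 CPM. The Vehicle 1, Lys05 4, AC220 1 and Combination 1 libraries had the lowest rank correlation with the other libraries of their own groups. The share of counts on transcripts under 1000 bp was 19.78% ± 0.72 (SD, n = 4) with Vehicle, 18.62% ± 1.32 with Lys05, 7.97% ± 0.40 with AC220 and 8.85% ± 1.24 with the Combination. Averaged over both settings of AC220 the share was 0.144 percentage points lower with Lys05 (two-sided exact permutation p = 0.807 within AC220 strata). The smallest p possible there is 0.000408. That average joins opposite shifts, lower with Lys05 in the absence of AC220 and higher in its presence. It therefore cannot show that the share was unchanged in either setting. Combination 1 had the highest share of its group, 10.6%.

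The genes with the smallest p among those higher with Lys05 included Fkbp11, Psmd6, Psmg1 and Samsn1. Fkbp11, a prolyl isomerase of the endoplasmic reticulum, stood at 87.9, 86.5, 126 and 116 CPM with Vehicle and at 151, 149, 237 and 154 CPM with Lys05. With AC220 its levels were 17.6, 21.7, 23.8 and 22.7 CPM, and with the Combination 36.0, 56.6, 36.5 and 30.2 CPM. All Lys05 libraries lay above all libraries without it in both settings, and the log2 difference was 0.81 ± 0.14 (SE, edgeR adjusted p = 0.105). Psmd6, a subunit of the regulatory particle of the proteasome, was at 99.1, 115, 143 and 136 CPM with Vehicle and 168, 204, 181 and 162 CPM with Lys05. It was at 104, 108, 113 and 114 CPM with AC220 and 126, 161, 159 and 138 CPM with the Combination, again with no overlap in either setting and a log2 difference of 0.47 ± 0.09 (edgeR adjusted p = 0.105). Psmg1, a chaperone of proteasome assembly, differed by 0.46 ± 0.09 on the log2 scale (edgeR adjusted p = 0.105), and its groups did not overlap in either setting.

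Samsn1, an adaptor protein of haematopoietic cells, was at 86.3, 69.7, 78.3 and 93.0 CPM with Vehicle and at 112, 113, 124 and 119 CPM with Lys05. It was at 48.2, 49.0, 41.0 and 39.4 CPM with AC220 and at 65.2, 61.9, 64.1 and 49.2 CPM with the Combination. The groups did not overlap in either setting, and the log2 difference was 0.48 ± 0.09 (edgeR adjusted p = 0.105). Tnfrsf12a, the receptor for the cytokine TWEAK, was the gene of this set with the largest difference, 1.27 ± 0.26 (edgeR adjusted p = 0.135), at a low mean level of 1.57 CPM with Vehicle and 5.69 CPM with Lys05. The other genes of the set were Ppid, a cyclophilin that works with HSP90 (log2 difference 0.54), Hat1, which acetylates newly made histones (0.41), the basophil protease Mcpt8 (0.85), the neutrophil protease Prtn3 (0.81), the translocon subunit Sec61g (0.42), the complex I subunit Ndufb5 (0.37) and Nudcd2 (0.53). 

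Among the genes lower with Lys05, those with the smallest p included Ncoa3, Prkcb, Nfatc1 and Spata13. Ncoa3, a coactivator of nuclear receptors, was at 31.5, 22, 27.7 and 25.3 CPM with Vehicle and 17.1, 12, 14.1 and 17.0 CPM with Lys05. It was at 50.7, 33.8, 31.5 and 43.8 CPM with AC220 and 19.4, 26.4, 20.8 and 31.0 CPM with the Combination. The libraries with Lys05 were the lower ones in each setting without overlap, and the log2 difference was -0.77 ± 0.14 (edgeR adjusted p = 0.105). Prkcb, the beta isoform of protein kinase C, was at 5.11, 5.51, 4.77 and 5.85 CPM with Vehicle and 3.22, 2.71, 2.79 and 3.97 CPM with Lys05. With AC220 it was at 23.9, 17.5, 16.6 and 23.1 CPM and with the Combination at 8.09, 8.51, 10.2 and 15.4 CPM. These groups did not overlap either, and the log2 difference was -0.85 ± 0.17 (edgeR adjusted p = 0.105).

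Nfatc1, a calcium-dependent transcription factor, differed by -0.71 ± 0.13 on the log2 scale (edgeR adjusted p = 0.105), and Spata13, an exchange factor for small GTPases, by -1.25 ± 0.24 (edgeR adjusted p = 0.105). Both were lower in every Lys05 library of a setting than in every library without it. Inpp5d, the lipid phosphatase SHIP of PI3K signalling, had a log2 difference of -0.67, and Arap1, a GTPase-activating protein for Arf proteins, one of -0.64. Nlrc5, the transactivator of MHC class I genes, differed by -0.67, and Slc9a9, a sodium-proton exchanger of endosomes, by -1.05. The set was completed by Dnase1l1 (-0.66), Plek, a protein kinase C substrate (-0.48), Pdlim5 (-0.89) and Rnpepl1 (-0.51). All 12 genes of the higher set and all 12 of the lower set were called by DESeq2 and by voom. They were picked for their small p in the same libraries, so these calls are not separate evidence. In an edgeR fit of all 4 LSK groups, Prtn3, Sec61g and Ndufb5 were called for the Combination against AC220 and none of the 24 for Lys05 against Vehicle.

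**Figure D1:**
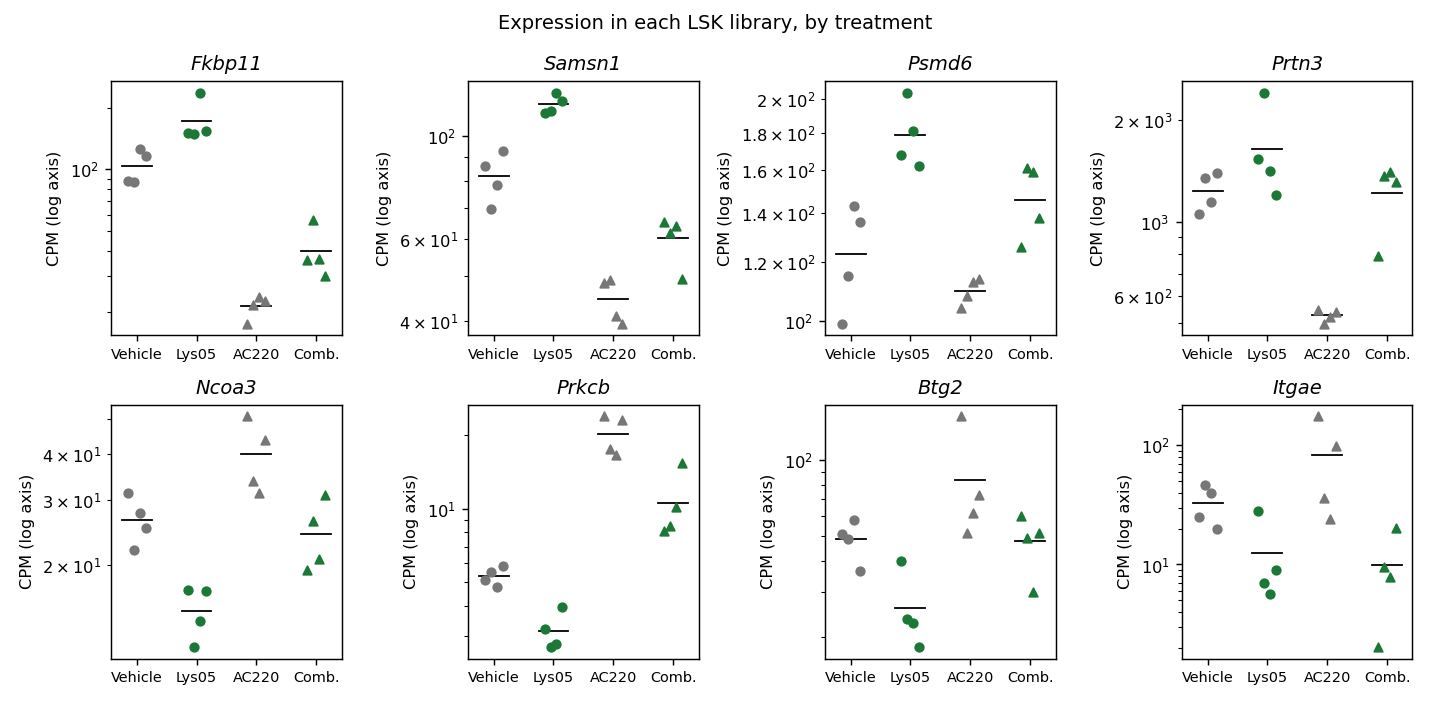
CPM of 8 genes in each of the 16 LSK libraries, on log axes; each point is 1 library, the line is the mean of its group, green marks Lys05 and triangles mark AC220, and Comb. is the Combination. Fkbp11, Samsn1 and Psmd6 do not overlap between libraries with and without Lys05 in either setting, nor do Ncoa3 and Prkcb in the other direction, while Prtn3 overlaps without AC220, and Btg2 and Itgae overlap in 1 or both settings.

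Complete separation of the groups in both settings was rare. It was seen for 25 genes higher with Lys05 (0.167% of the genes tested) and for 20 lower (0.134%). Besides those above, the higher genes included Psmc6, an ATPase of the proteasome's regulatory particle, with a log2 difference of 0.38 ± 0.10, and Rfc4, a subunit of the clamp loader of DNA replication, with 0.42 ± 0.10. They also included the ribosome biogenesis factors Rpf1 (0.50), Rrp36 (0.56) and Rsl1d1 (0.36), the mitochondrial ribosomal protein Mrpl18 (0.39) and the RNA exosome subunit Exosc9 (0.49). The lower genes included Rasgrp1, an activator of Ras, with -1.62 ± 0.30 at a low level, the phosphodiesterase Pde4b (-0.39) and the unconventional myosin Myo10 (-0.63). These genes were picked from the non-overlapping sets after their values were seen, and the edgeR adjusted p of each lay between 0.105 and 0.162.

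The genes at an unadjusted p under 0.05 also differed in build. The longest annotated transcript had a median of 2114.5 bp for the genes higher with Lys05 and 4480 bp for those lower, against 2990 bp for all genes tested. By transcript length, the median log2 difference was 0.12 for the 1773 genes under 1000 bp, 0.18 for the next 2685, 0.04 for the next 5713 and -0.12 for the 4763 longest. In the shortest group it was -0.07 without and 0.29 with AC220, in the next 0.16 and 0.17, and in the longest -0.19 and -0.08. The median log2 CPM was 6.56 for the higher, 4.18 for the lower and 3.68 for all genes, and the median absolute log2 difference was 0.34 for the higher and 0.60 for the lower genes. With an offset for transcript length and GC content in each library, 907 genes were higher and 759 lower at the same unadjusted p, and 0 were called.

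The Lys05 effect could be read separately without and with AC220, since Lys05 against Vehicle and the Combination against AC220 share no library. In a fit of all 4 groups the first called 0 genes, with 2540 at an unadjusted p under 0.05. The second called 63, of which 61 were higher and 2 lower, with 1452 at an unadjusted p under 0.05. A separate fit of the libraries with AC220 alone called 0 genes higher and 2 lower. At an unadjusted p under 0.05 it listed 1238 higher and 1676 lower, so the side of the difference depended on the fit. Across the 14962 genes the log2 differences had a Pearson r of 0.102 and a Spearman rho of 0.153, and 57% of genes had the same sign. For the 10022 genes whose mean log2 CPM reached 2, r was 0.271, rho 0.252 and the share of equal sign 59.7%. Genes are not independent replicates, so these values describe the libraries. The test of the difference, the interaction of Lys05 with AC220, called 0 of 15730 genes (0%) in edgeR, with 1645 at an unadjusted p under 0.05, and 171 in DESeq2.

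**Figure D2:**
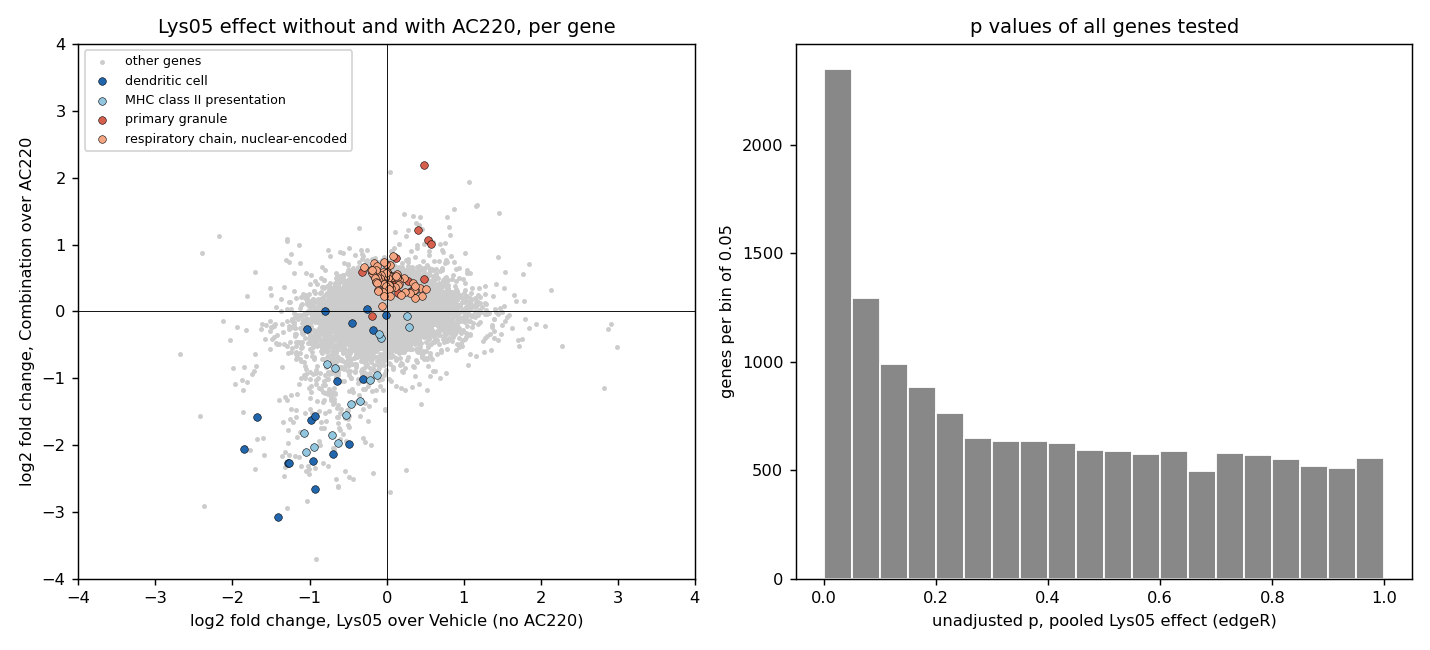
Left, log2 fold change of Lys05 over Vehicle (x axis) against that of the Combination over AC220 (y axis) for the 10022 genes whose mean log2 CPM reached 2; each point is 1 gene, with 4 lists coloured. Right, number of genes in each bin of 0.05 of the unadjusted edgeR p of the pooled effect. Class II and dendritic cell genes lie mostly in the lower left, the respiratory chain genes lie above 0 on the y axis and around 0 on the x axis, and the first bin of the p values is the tallest, although no gene passes after adjustment.

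Genes of the lysosome itself were found on both sides of 0. Of 48 tested lysosomal hydrolases, 4 were higher (8.33%) and 11 lower (22.9%) at an unadjusted p under 0.05. The shares of all genes tested were 8.96% and 6.73%. The median log2 difference was -0.04, against 0.02 for all genes. In separate fits 0 of 48 were lower in the libraries without AC220 and 12 in those with it, and 1 was lower without the AC220 covariate. Over all genes, these fits listed 567 of 13795 lower without AC220, 1676 of 14884 with it and 342 of 14315 without the covariate. They listed 499, 1238 and 166 higher in the same order, and voom listed 2386 higher and 1807 lower of 14962. List counts under these fits, here and below, have those counts as their background. Psap, the precursor of the saposins that help degrade sphingolipids, was at 174, 342, 228 and 179 CPM with Vehicle and 243, 144, 87.3 and 117 CPM with Lys05. It was at 2810, 930, 696 and 1390 CPM with AC220 and 246, 468, 640 and 777 CPM with the Combination, so both settings overlapped, and the log2 difference was -1.05 ± 0.31 (edgeR adjusted p = 0.178). The sulfatases Arsb (-0.55) and Ids (-0.62) were lower as well. Without the AC220 1 library the lower count was 7 of 48. Ppt1 had mean levels of 340 and 299 CPM with Vehicle and Lys05 and of 380 and 167 CPM with AC220 and the Combination, a log2 difference of -0.69 ± 0.32 (edgeR adjusted p = 0.305).

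Of 35 tested genes of the lysosomal membrane and its proton pump, the V-ATPase, 8 were higher (22.9%) and 4 lower (11.4%) at an unadjusted p under 0.05. The median was 0.10, and 2 were higher in a fit of either AC220 setting alone. The pump subunit Atp6v0d1 differed by 0.35 ± 0.12 and another, Atp6v0a2, by -0.51 ± 0.15. The lysosomal chloride-proton exchanger Clcn7 differed by -0.82 ± 0.25, with -1.46 without and -0.22 with AC220, and Laptm5, a lysosomal membrane protein of haematopoietic cells, by -0.39 ± 0.12. The higher count was 5 of 35 without the Lys05 3 or the Combination 3 library. 

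Of 33 genes of the autophagy machinery 2 were higher and 2 lower (6.06% each), below the 8.96% and 6.73% of all genes tested. Among the higher genes was Atg5, which joins the conjugation system that lipidates LC3, with 0.31 ± 0.10. Of 18 ATG8 proteins and receptors 0 were higher and 1 (5.56%), Tollip, was lower, with -0.47 ± 0.15. The autophagy receptor Sqstm1, which autophagy itself degrades, had a log2 difference of 0.14 ± 0.16 (edgeR adjusted p = 0.731), with 0.51 without and -0.23 with AC220, and Map1lc3b, which encodes LC3B, had one of 0.10 ± 0.09 (edgeR adjusted p = 0.609). Of 25 genes around MiT/TFE regulation 5 were higher (20%) and 2 lower (8%), with a median of -0.15. Of their log2 differences 9 were positive and 16 negative. The Ragulator subunits Lamtor4 (0.43 ± 0.11) and Lamtor5 (0.26 ± 0.09) and the factor Tfec (0.77 ± 0.28) were higher and Rptor, the mTORC1 scaffold, lower (-0.37 ± 0.13). With 1 library left out in turn, the higher counts ranged from 1 to 4 for the autophagy machinery and from 3, without Lys05 1, to 5 for the MiT/TFE genes. The MiT/TFE count was 2 of 24 in the libraries without AC220 and 1 of 24 without the covariate. It was 3 of 25 with the offset for length and GC content.

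Of 25 genes of sterol synthesis and uptake 2 were higher (8%) and 5 lower (20%), with a median of -0.08. The sterol demethylase Cyp51 differed by -0.54 ± 0.20 and the regulator Srebf2 by -0.29 ± 0.11, while Ebp, a sterol isomerase, differed by 0.31 ± 0.12. Hmgcs1, an early enzyme of the pathway, had a log2 difference of -0.39 ± 0.23 (edgeR adjusted p = 0.413). In the libraries without AC220 1 of 24 was lower and in those with it 7 of 25. With the offset for length and GC content 1 of 25 was lower, and the count was 2 without the Lys05 2 library and 3 without Vehicle 2, AC220 2, AC220 3 or Combination 1. No member of these lists, or of any other list described, passed the adjusted edgeR test of the pooled effect.

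The largest differences by list were in genes of dendritic cells, and they were lower with Lys05. Of 27 tested genes, 0 were higher and 16 lower (59.3%, against 6.73% of all genes) at an unadjusted p under 0.05. The median log2 difference was -1.25, with -0.93 without and -1.40 with AC220. In separate fits 5 of 26 were lower without AC220 and 18 of 27 with it. Itgae, an integrin subunit of a class of conventional dendritic cells, was at 25.2, 46.5, 39.8 and 20.0 CPM with Vehicle and 28.1, 7.01, 5.69 and 8.97 CPM with Lys05. It was at 175, 36.1, 24.2 and 97.8 CPM with AC220 and 2.02, 9.58, 7.81 and 20.1 CPM with the Combination. Without AC220 only Lys05 1 lay among the Vehicle libraries, with AC220 the groups did not overlap, and the log2 difference was -2.24 ± 0.54 (edgeR adjusted p = 0.146). The lectins Cd209a (-1.77 ± 0.47) and Clec9a (-1.76 ± 0.51), the chemokine receptor Xcr1 (-1.79 ± 0.54) and the transcription factor Zbtb46 (-1.96) were lower as well. The list also holds Flt3, whose log2 difference was -0.23 ± 0.12 (edgeR adjusted p = 0.378).

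Genes of MHC class II, which presents peptides made in endosomes and lysosomes to helper T cells, were also lower. Of 20 tested, 0 were higher and 11 lower (55%, against 6.73% of all genes). The median was -0.81, with -0.40 without and -1.18 with AC220, and 7 were lower without the AC220 1 library. In separate fits 0 of 20 were lower without AC220 and 13 with it. H2-Ob, a chain of the peptide-loading regulator H2-O, was at 50.1, 105, 128 and 75.5 CPM with Vehicle and 110, 63.6, 59.1 and 50.4 CPM with Lys05. It was at 72.1, 59.7, 65.6 and 77.2 CPM with AC220 and 22.4, 27.4, 23.8 and 35.4 CPM with the Combination, where the groups did not overlap, and the log2 difference was -0.84 ± 0.22 (edgeR adjusted p = 0.163). Ciita, the master transactivator of these genes, differed by -1.58 ± 0.50. Of the classical chains, H2-Aa differed by -1.45 ± 0.46, H2-Eb1 by -1.49 ± 0.49 and H2-Ab1 by -1.28 ± 0.49.

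The summed level of the MHC class II list ranged from 20800 to 73500 CPM with Vehicle, from 12100 to 68200 with Lys05, from 5540 to 22900 with AC220 and from 1070 to 6840 with the Combination. The Lys05 1 library, at 68200 CPM, lay among the Vehicle libraries. The summed dendritic cell list ranged from 1640 to 3080 CPM with Vehicle, 1050 to 2530 with Lys05, 1750 to 4040 with AC220 and 953 to 1920 with the Combination, so each setting overlapped. In bulk libraries fewer cells of a type and less RNA per cell cannot be told apart. 

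Promoters of the class II list are shown because a larger share of it was lower than of most other lists. The 4 members with the smallest p that have a RefSeq window (build GRCm38.p6) are printed as the 120 bases before the annotated start, 5′ to 3′ on the gene's strand, with CTGATTGG, the Y box that NF-Y binds, in capitals, or its inner ATTGG where the longer form is absent. H2-Ob lies at chr17:34238785-34238904 on the plus strand, H2-Aa at chr17:34287824-34287943 on the minus strand, H2-Eb1 at chr17:34305747-34305866 on the plus strand and Ifi30, a thiol reductase of antigen processing, at chr8:70766664-70766783 on the minus strand.
H2-Ob: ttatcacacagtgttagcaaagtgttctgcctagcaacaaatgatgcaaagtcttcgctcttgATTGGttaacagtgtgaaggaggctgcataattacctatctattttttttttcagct
H2-Aa: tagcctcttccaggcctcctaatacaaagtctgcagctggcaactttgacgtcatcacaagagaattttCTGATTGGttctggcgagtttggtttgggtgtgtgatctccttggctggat
H2-Eb1: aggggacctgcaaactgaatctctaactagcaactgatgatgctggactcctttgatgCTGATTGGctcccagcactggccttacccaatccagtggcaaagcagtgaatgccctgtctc
Ifi30: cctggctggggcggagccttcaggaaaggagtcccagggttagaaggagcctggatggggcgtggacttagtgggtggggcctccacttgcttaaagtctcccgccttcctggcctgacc

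The capitals begin 57 bases before the start in H2-Ob, 51 in H2-Aa and 62 in H2-Eb1, and Ifi30 has no match in its 120 bases. In all, 6 motifs were searched on both strands of the 250 bases before the start, after results were known. They were CTGATTGG with the ATTGG inside it, the E-box CACGTG with the longer form TCACGTG that contains it, the C/EBP-type palindrome TTGCGCAA, and the RUNX-type motif AACCACA. Psap, the lysosomal hydrolase gene with the smallest p, has no CACGTG in the 120 bases before its start, and its window is not printed. Each was counted in 3 lists and in all 27025 genes with a window. Of the 14 class II members with a window, CTGATTGG was in 4 (28.6%, against 4.43% of all genes), ATTGG in 11 (78.6% against 37.5%), CACGTG in 2 (14.3% against 6.86%), TCACGTG in 2 (14.3% against 3.58%), and TTGCGCAA and AACCACA in 0 (against 0.185% and 5.08%). Of 66 members of the lysosome lists with a window, these motifs were in 2 (3.03%), 26 (39.4%), 18 (27.3%), 15 (22.7%), 1 (1.52%) and 3 (4.55%), in the same order. Of 11 primary granule genes they were in 0, 4 (36.4%), 1, 1, 1 and 1 (9.09% each). A match is a stretch of letters and not a measured binding site.

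**Figure D3:**
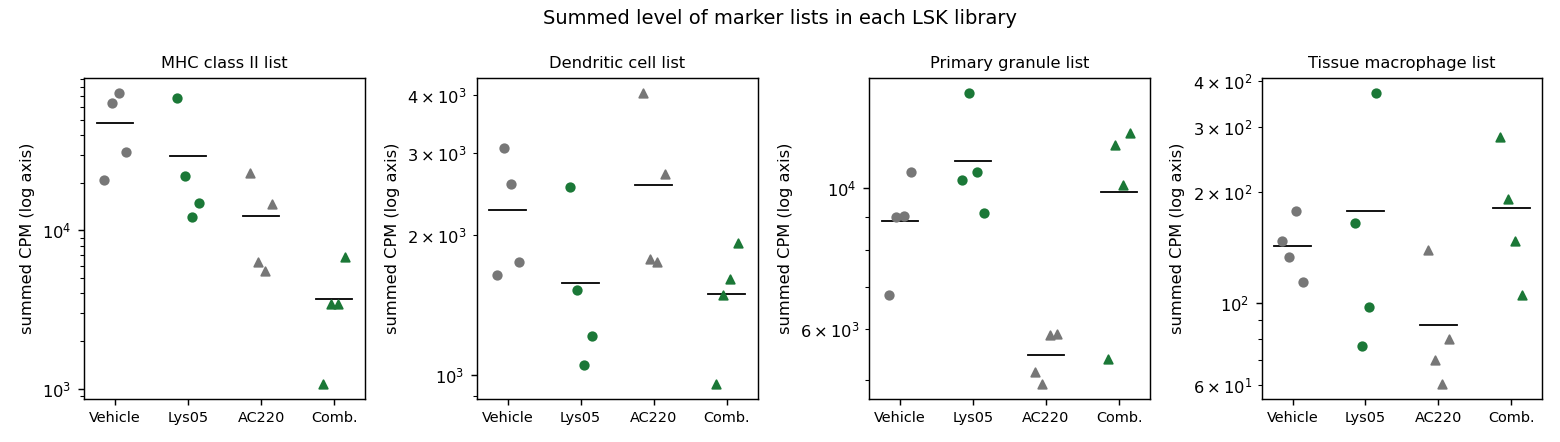
Summed CPM of the MHC class II, dendritic cell, primary granule and tissue macrophage lists in each of the 16 LSK libraries, on log axes; each point is 1 library, the line is the mean of its group, green marks Lys05, triangles mark AC220, and Comb. is the Combination. The class II sums with the Combination run from 1070 to 6840 CPM against 5540 to 22900 with AC220, and the Lys05 1 library, at 68200 CPM, sits with the Vehicle libraries.

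Genes of the primary granules, the protease- and peroxidase-filled organelles of promyelocytes, were higher. Of 12 tested, 7 were higher (58.3%, against 8.96% of all genes) and 0 lower at an unadjusted p under 0.05. The median was 0.41, and 2 were higher in a fit without AC220 and 9 in a fit with it. Prtn3 was at 1050, 1350, 1140 and 1390 CPM with Vehicle and 1540, 2420, 1410 and 1200 CPM with Lys05. It was at 545, 497, 521 and 539 CPM with AC220 and 792, 1370, 1400 and 1310 CPM with the Combination. The groups overlapped without AC220 and not with it, and the log2 difference was 0.81 ± 0.17 (edgeR adjusted p = 0.138). Ctsg, another granule protease, differed by 0.81 ± 0.18, Mpo, the myeloperoxidase, by 0.80 ± 0.20, and Ms4a3, a marker of granulocyte-monocyte progenitors, by 1.34 ± 0.30. The summed level ranged from 6800 to 10600 CPM with Vehicle, 9140 to 14100 with Lys05, 4920 to 5910 with AC220 and 5390 to 12200 with the Combination. 

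Markers of tissue macrophages were scarce. Of 13 tested, 6 were higher (46.2%, against 8.96% of all genes) and 1 lower (7.69%, against 6.73%) at an unadjusted p under 0.05. The complement gene C1qa was at 0, 0.517, 0 and 0 CPM with Vehicle and 2.41, 0.692, 0.975 and 0.0852 CPM with Lys05. It was at 1.21, 0.508, 0.195 and 0.741 CPM with AC220 and 7.32, 4.45, 5.70 and 2.85 CPM with the Combination. The Combination libraries were above all others, and the groups without AC220 overlapped. In separate fits 0 of 13 members were higher without AC220 and 11 of 17 with it. The filter on low counts was rerun in each fit, so members high only in the Combination libraries could enter the fit with AC220. The count of 11 of 17 is therefore no support for a higher level. The count of higher members was 2 of 14 without the AC220 4 library, and 3 without the Lys05 1, the AC220 2 or the AC220 3 library. Of 20 monocyte genes 2 were higher (10%) and 5 lower (25%). Among the lower ones were Klf4 (-1.45 ± 0.51) and the chemokine receptor Ccr2 (-1.05 ± 0.43). But without the AC220 1 library 0 were lower, without Vehicle 2 or Lys05 2 the count was 3, and without Lys05 1 it was 8. The summed monocyte list ranged from 1780 to 3360 CPM with Vehicle, 1910 to 3230 with Lys05, 1370 to 3010 with AC220 and 1130 to 1940 with the Combination. The summed tissue macrophage list ranged from 114 to 178 CPM with Vehicle, 76.3 to 372 with Lys05, 60.2 to 139 with AC220 and 105 to 282 with the Combination. The part of these other cell types in the differences above was not tested.

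Nuclear genes of the respiratory chain, which makes most of a cell's ATP in mitochondria, were higher by small amounts. Of 72 tested, 41 were higher (56.9%, against 8.96% of all genes) and 0 lower at an unadjusted p under 0.05. All 72 log2 differences were positive, with a median of 0.26. That median was 0.02 without AC220 and 0.49 with it, and in separate fits 2 of 72 were higher without AC220 and 58 with it. Ndufb5 of complex I was at 322, 372, 371 and 442 CPM with Vehicle and 463, 413, 448 and 440 CPM with Lys05. It was at 66.0, 61.3, 68.9 and 64.4 CPM with AC220 and 91.5, 99.1, 87.9 and 91.0 CPM with the Combination. The groups overlapped without AC220 and not with it (0.37 ± 0.08, edgeR adjusted p = 0.138). Atp5o of the ATP synthase (0.35 ± 0.09), Uqcrfs1 of complex III (0.36 ± 0.10) and Cox7b of complex IV (0.31 ± 0.08) followed. These genes have short transcripts, with a median of 1073 bp, and 16 of 72 were higher with the offset for length and GC content. The 11 tested mitochondrially encoded genes had 0 members at an unadjusted p under 0.05 in either direction, with medians of -0.82 without and 0.47 with AC220.

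Genes of growth and division were also more often higher than lower. Of 47 genes of MYC response and ribosome biogenesis 21 were higher (44.7%, against 8.96% of all genes) and 2 lower (4.26%, against 6.73%). The higher ones included the nucleolar methyltransferase Fbl (0.23 ± 0.07) and the ribosome assembly factors Wdr12 (0.34 ± 0.10) and Pno1 (0.41 ± 0.13). In separate fits 1 of 47 was higher without AC220 and 16 with it, and 30 were higher with voom. Over all genes, 499 of 13795, 1238 of 14884 and 2386 of 14962 were higher in these fits. The list's higher count was 9 with the offset for length and GC content and 13 without the Lys05 2 library. Myc itself differed by 0.29 ± 0.15 (edgeR adjusted p = 0.355). Of 75 ribosomal protein genes 3 were higher and 0 lower, with medians of -0.18 without and 0.32 with AC220 and higher counts of 1 to 5 with 1 library left out in turn. The 3 of 75 (4%) lay below the 8.96% of all genes, and the count was 27 with voom, 19 in the libraries with AC220 and 0 in those without it or with the offset. Of 45 S phase genes 15 were higher (33.3%, against 8.96% of all genes) and 1 lower (2.22%, against 6.73%). The higher count was 5 in a fit without AC220, 8 in a fit with it and 9 with the offset. It was 8 without the Lys05 2 and 9 without the AC220 1 library. Rfc4 was at 214, 201, 307 and 303 CPM with Vehicle and 339, 344, 353 and 343 CPM with Lys05. It was at 49.8, 60.7, 61.5 and 58.2 CPM with AC220 and 66.9, 78.1, 87.2 and 75.2 CPM with the Combination, without overlap in either setting. Of 32 genes of G2/M and mitosis 7 were higher (21.9%, against 8.96% of all genes) and 1 lower (3.12%, against 6.73%), with Cdk1, the mitotic kinase, at 0.29 ± 0.08. The higher count was 2 in the libraries without AC220, 0 without the covariate and 20 with voom. With 1 library left out in turn it ranged from 5 to 13, being 13 without the Lys05 4 and 11 without the Combination 1 library. The proliferation marker Mki67 differed by -0.35 ± 0.26 (edgeR adjusted p = 0.538) and the cell cycle inhibitor Cdkn1a by -0.10 ± 0.14 (edgeR adjusted p = 0.792).

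Among stress-related lists, 7 of 20 targets of NRF2, the factor of the oxidative stress response, were higher (35%, against 8.96% of all genes) and 0 lower. Gclm, a subunit of the enzyme that starts glutathione synthesis, was at 53.4, 63.9, 66.8 and 82.4 CPM with Vehicle and 73.2, 115, 132 and 91.6 CPM with Lys05. It was at 73.2, 89.5, 67.6 and 68.2 CPM with AC220 and 111, 86.4, 106 and 76.5 CPM with the Combination. The groups overlapped in both settings, with a log2 difference of 0.49 ± 0.13 (edgeR adjusted p = 0.165). The list's higher count was 2 in a fit without AC220, 4 in a fit with it, 3 with the offset and 4 without the AC220 3 or the Combination 2 library. Of 29 genes of the integrated stress response 5 were higher (17.2%) and 0 lower, with Cebpb at 0.80 ± 0.24 and the translation inhibitor Eif4ebp1 at 0.35 ± 0.11. Of 22 genes of the unfolded protein response 3 were higher (13.6%, against 8.96% of all genes) and 1 lower (4.55%, against 6.73%), a count near that of all genes, while 13 were higher with voom. Pdia6, a disulfide isomerase, differed by 0.49 ± 0.14, and of 13 heat shock chaperones 2 were higher (15.4%) and 0 lower, or 5 higher with voom, among them Dnaja1 (0.31 ± 0.09). With 1 library left out in turn, the higher counts ranged from 4 to 7, from 1 to 6 and from 1 to 4 for these 3 lists. In the same order, the higher counts were 2 of 26, 0 of 22 and 1 of 12 in the libraries without AC220. Without the covariate they were 1 of 27, 1 of 22 and 0 of 13.

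Immediate early genes, which cells switch on within minutes of a stimulus, were lower. Of 14 tested 0 were higher and 6 lower (42.9%, against 6.73% of all genes), with a median of -0.65, and 3 were lower without the AC220 1 library. Btg2, an antiproliferative member, was at 50.9, 48.9, 58.2 and 36.4 CPM with Vehicle and 39.8, 23.5, 22.7 and 18.2 CPM with Lys05. It was at 149, 51.4, 61.5 and 73.0 CPM with AC220 and 60.3, 49.3, 30.0 and 51.3 CPM with the Combination. The groups overlapped in both settings, and the log2 difference was -0.86 ± 0.22 (edgeR adjusted p = 0.163). Fos, a subunit of AP-1, differed by -0.93 ± 0.35 and the phosphatase Dusp1 by -0.71 ± 0.22. Such genes also respond to the handling of cells, and the labels give no sort time, so its part was not tested.

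Of 31 genes of stem cell identity 2 were higher (6.45%, against 8.96% of all genes) and 4 lower (12.9%, against 6.73%). The median was 0.01, and 2 were lower without Lys05 3, AC220 2, AC220 4 or Combination 4. The lower count was 1 of 30 in the libraries without AC220 and 8 of 31 with voom. Mecom, a transcription factor of stem cells, differed by -0.95 ± 0.30 and Cd34 by 0.29 ± 0.10, while Hlf differed by 0.13 ± 0.33 (edgeR adjusted p = 0.898) and Kit by -0.23 ± 0.14 (edgeR adjusted p = 0.443). Of 14 genes of lymphoid priming 1 was higher (7.14%) and 5 lower (35.7%). Dntt, the template-free DNA polymerase of early lymphoid cells, was among the lower ones, with -0.82 ± 0.24. The lower count was 1 of 12 in the libraries without AC220, 1 of 14 without the covariate and 10 of 14 with voom. Of 42 interferon response genes 6 were higher (14.3%) and 1 lower (2.38%), with Ifitm2 at 0.35 ± 0.09 and Rtp4 at 0.94 ± 0.24. The higher count was 3 of 41 in the libraries without AC220, 1 of 42 without the covariate and 11 of 42 with voom. Of 24 NF-kB genes 0 were higher and 5 lower (20.8%). The lower count was 1 of 22 in a fit without AC220 and 10 in a fit with it. It was 1 without the AC220 1 library and 3 without Vehicle 2, Combination 2 or Combination 3.

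**Figure D4:**
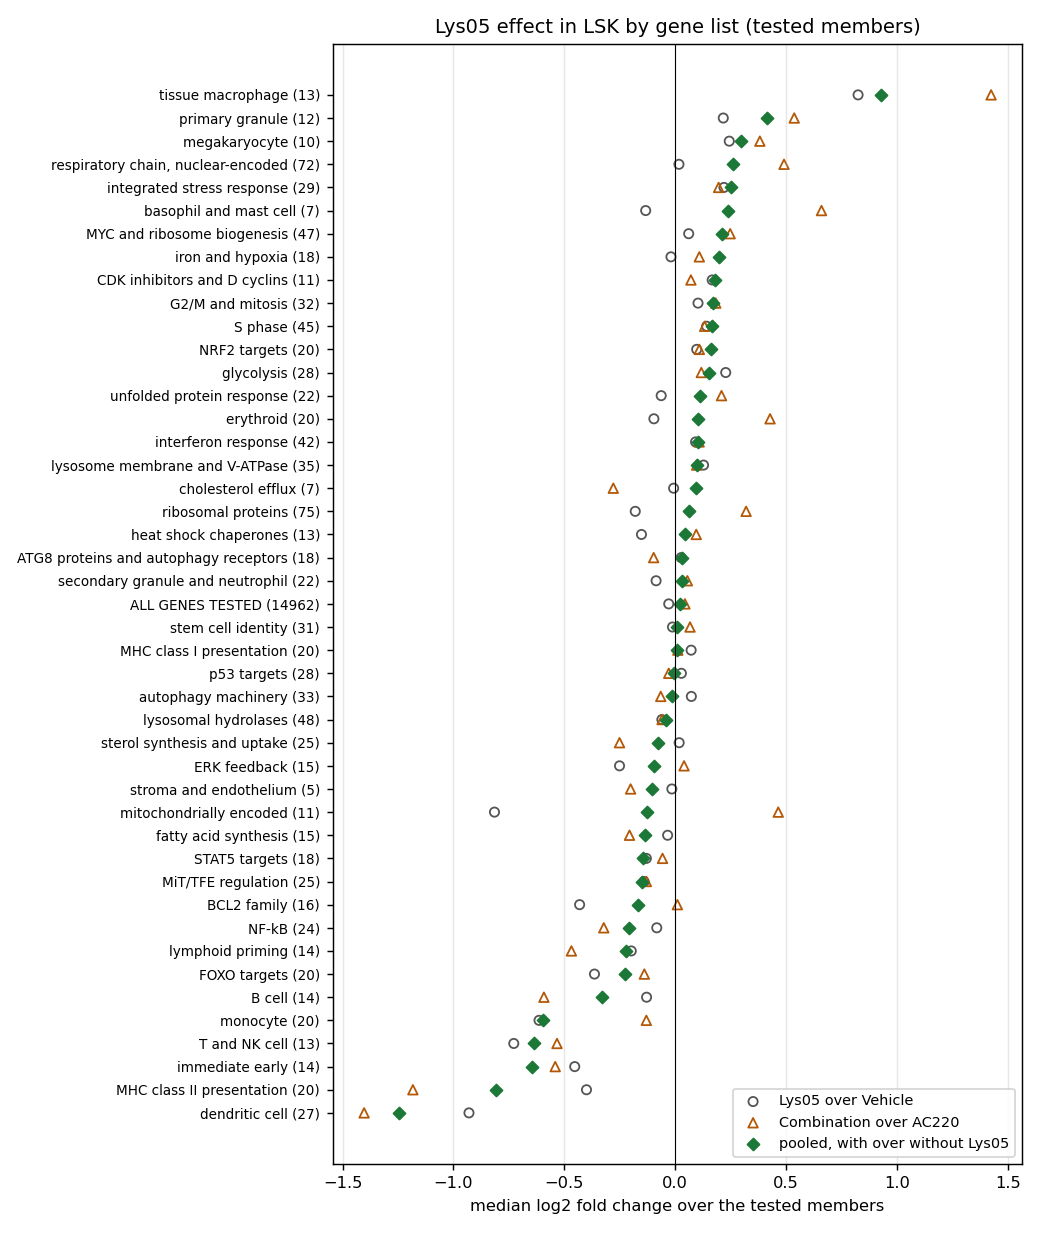
Median log2 fold change over the tested members of each gene list (number of members in brackets) for the pooled Lys05 effect (diamonds), Lys05 over Vehicle (circles) and the Combination over AC220 (triangles). The dendritic cell, MHC class II, immediate early and primary granule lists lie on the same side of 0 in both settings, while the mitochondrially encoded and ribosomal protein lists have medians on opposite sides.

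For several of these genes the estimate of the same contrast in GMP stood apart from that in LSK, but edgeR called no gene for the difference. In a fit of all 32 libraries the log2 difference of Mpo was 0.80 in LSK and -0.21 in GMP, that of Psap -1.04 in LSK and 0.21 in GMP, and that of Prtn3 0.81 in LSK and 0.22 in GMP. Psmd6 differed by 0.47 in LSK and 0.49 in GMP, and Itgae by -2.24 in LSK and -2.08 in GMP. The test of the difference between cell types called 0 of 16144 genes (0%) in edgeR, where the smallest adjusted p was 0.397. It listed 985 at an unadjusted p under 0.05, and DESeq2 called 57.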

How the data were processed

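The authors deposited 1 table of raw counts per Ensembl gene for 32 libraries. The labels' protocols name RNeasy Plus Micro columns for the RNA, SMARTer v4 amplification for low input and Nextera XT library preparation. The tools and build in the submitters' processing notes, by name, are DESeq2 1.26.0, HTSeq 0.11.2, bcl2fastq 2.20, STAR 2.7.3a, GRCm38 and Trim Galore 0.6.5, without roles; the annotation release and strand setting are not given in the sources used here, so overlapping and antisense genes are uncertain. The table's 5 summary lines (15.2% to 24% of each LSK column) were left out. Symbols and transcript lengths came from GENCODE M21.

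Counts of the 16 LSK libraries were filtered with filterByExpr, scaled with TMM and fitted with edgeR 4.0.16 (R 4.3.3), robust quasi-likelihood, with terms for AC220 and Lys05, two-sided, with Benjamini-Hochberg adjustment over all genes tested. Alternatives used DESeq2 1.42.0 and limma 3.58.1. The scripts were tested on simulated data. Libraries of a group differed by more than sampling noise, with a chi-square per gene of 32.3 to 291.

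Named genes are up to 12 in each direction with the largest difference among called genes. With none called, they are the 12 with the smallest p, whose mean log2 CPM reached 2, with the same sign with and without AC220 and without predicted or pseudogene names. Added were up to 4 members of each described list and 12 followed genes; further list members and non-overlapping genes were named after their values were seen. The members, gene lists and tests were chosen with earlier results of these data known. The lists described, the motifs and the measure of transcript length, first the median and then the longest transcript of a gene, were settled after values were seen. A few genes that the rule or the lists hold are not reported here.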

Additional observations from a re-analysis of the deposited data

Results flagged for a closer look

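In 12 of 168 sets of 4 libraries (36 genes and 6 library measures in each LSK group) 1 library stood apart by Dixon's 95% criterion, which chance alone meets in about 1 of 20 sets. Without AC220 these were Hmgcs1 at 28.4 CPM and Hlf at 24.2 CPM in Vehicle 1, H2-Ab1 at 32700 CPM in Lys05 1, Flt3 at 140 CPM and Mpo at 2210 CPM in Lys05 2, and Fkbp11 at 237 CPM and Inpp5d at 30.5 CPM in Lys05 3. With AC220 they were Mki67 at 189 CPM in AC220 1, Prtn3 at 792 CPM, Flt3 at 263 CPM and Mki67 at 148 CPM in Combination 1, and Tnfrsf12a at 6.71 CPM in Combination 4. H2-Ab1 in Lys05 1 was within the range of the Vehicle libraries, 9120 to 34800 CPM.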

How the results depend on the processing

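The count of 0 called genes held with DESeq2-style size factors in edgeR, without the filter on low counts, with a 4-group average, with an offset for transcript length and GC content, without the AC220 covariate, with each library left out in turn (0 to 0) and without the least correlated library of each group, an alternative added after seeing the data. It became 364 with DESeq2, 1742 with voom and quality weights, 1 (Tcrg-C4) in the libraries without AC220 and 2 (Aldoc and H2-Ob) in those with AC220; the cause was not tested. The 2347 genes at an unadjusted p under 0.05 became 4193 with voom, 1066 in the libraries without AC220 and 508 without the covariate, and ranged from 1864 to 2754 with 1 library left out. The interaction count of 0 became 171 with DESeq2 and ranged from 0 to 4 with 1 library left out, being 1 without Vehicle 1, 1 without Vehicle 2, 4 without Vehicle 4 and 2 without Lys05 4. The LSK against GMP count of 0 became 57 with DESeq2 and ranged from 0 to 1. The short-transcript difference reversed to 0.108 points at a limit of 1500 bp (two-sided exact permutation p = 0.911).

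Of 3579 values of 138 genes under the alternatives, 3416 kept direction and side of the threshold, 144 passed it and 19 changed sign. With voom the log2 difference was -0.105 for Sqstm1, 0.072 for Mki67, -0.278 for Hlf, 0.097 for mt-Nd2, 0.05 for mt-Nd5 and 0.068 for mt-Nd6. In the libraries with AC220 it was -0.28 for Sqstm1, -0.011 for Map1lc3b, -0.024 for Hsf1, 0.361 for mt-Nd2, 0.355 for mt-Nd5 and 0.314 for mt-Nd6. In those without AC220 it was -0.032 for Hspd1, -0.121 for Hspe1, -0.001 for Nme1 and -0.02 for Rpl35. Sqstm1 was at -0.06 without the covariate, and Hlf at -0.308 without the least correlated libraries, with a range from -0.191 (without Combination 1) to 0.364 with 1 library left out.

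No paired analysis was possible because the labels give no replicate numbers or animals. The median SE was 0.167 (log2) over the 10022 genes whose mean log2 CPM reached 2, and differences of over 5 times their own SE, such as that of Fkbp11, were not called. P-values set a difference against the spread between these libraries.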
